A study of Homo sapiens with 4 samples.

Results

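The genes described here make, regulate or move cholesterol and fatty acids. Their members were a list of 45 genes, and the unit of measurement was the probe set, a group of short probes on an Affymetrix HG-U133 Plus 2.0 array that reports the RNA of a gene. Of the 45 genes, 40 had at least 1 probe set annotated to that gene alone, 97 probe sets in all of the 54675 on the array, and the array as a whole named 19775 genes in this way. U937-AE cells are U937 cells, a human myelomonocytic leukemia line, of a single clone stably transfected with HA-tagged AML1/ETO, the t(8;21) fusion protein, under a zinc-inducible mouse metallothionein promoter. They were compared with U937-Mt cells, a bulk population transfected with pSG-MtNEO lacking an insert. Zinc sulfate (100 µM, 8 hours) was given to both, so zinc does not distinguish them. For each cell line the RNA of 3 extractions was pooled and the pool was hybridized to 2 arrays, which gives 1 pool per cell line and 4 arrays. The 2 arrays of a cell line therefore measured hybridization error only, no test across cell lines was possible, and the presence of AML1/ETO cannot be told apart from the difference between a clone and a bulk population.

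Cholesterol is built in the cytosol and endoplasmic reticulum from acetyl-CoA. The mevalonate pathway leads to farnesyl diphosphate, and the sterol branch leads from there through squalene and lanosterol to cholesterol. Fatty acids start from the same acetyl-CoA, which is carboxylated and extended, then desaturated, elongated and coupled to CoA. Many of these genes are transcribed under SREBP-1 and SREBP-2, membrane-bound transcription factors which the escort protein SCAP carries to the Golgi for cleavage when sterols are low and which the INSIG proteins hold back when sterols are high. In monocytes and macrophages the transporters ABCA1 and ABCG1 export cholesterol from the cell.

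A gene was represented by its brightest probe set. Signals below an array's median, the floor, were raised to it, and differences are mean log2 signal in U937-AE minus mean log2 signal in U937-Mt. The range in brackets covers the 4 comparisons of 1 U937-AE array with 1 U937-Mt array. A gene was called higher or lower when all 4 comparisons exceeded 1.5-fold in 1 direction, and it counted as measured when its mean signal reached the mean floor in at least 1 pool. By this rule 36 members were measured. MVD, ABCA1, ME1 and ELOVL6 stayed below the floor in both pools. The probe sets of CYP51A1, ELOVL1 and FADS1 also named a second gene, no probe set was named for FDFT1 or ACSL3 in the annotation used, and these 5 genes were not analysed here.

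A RUNX1T1 probe set, which reads the ETO part of the fusion, had 1362 and 1299 in the U937-AE copies, against 8.6 and 7.6 in the U937-Mt copies. It was the only RUNX1T1 probe set called. Another had 181.9 and 95.5 in the U937-AE copies, against 276.6 and 121.2 in the U937-Mt copies, with overlapping groups. The remaining RUNX1T1 probe sets were under the floor on all arrays. Correlations between the 4 arrays were 0.935 for the U937-AE copies, 0.919 for the U937-Mt copies and 0.910 to 0.917 across cell lines (Pearson's r of log2 signal across probe sets, which are not independent). Of 12 myelomonocytic markers listed, 9 were measured, and 5 were called lower and 1 higher, with summed signals of 14168 to 15339 on the U937-AE arrays, against 29740 to 31258 on the U937-Mt arrays. Most of the difference in the sums came from MPO, with 1898 and 1558 in the U937-AE copies, against 16117 and 14591 in the U937-Mt copies. MPO, AZU1, ELANE, LYZ and SPI1 were lower and PTPRC was higher, while CD14 and FCGR1A were below the floor and CD33 was not analysed. None of the measured T cell, B cell, erythroid, epithelial or fibroblast markers was called. Those measured were CD2, MS4A1, CD79A, CD79B, KLF1, EPOR and COL1A1, with EPOR at 2861 to 3771 and CD79A at 831 to 1051. CD3D, CD3E, CD3G, ALAS2, EPCAM, KRT19 and COL3A1 were below the floor on all arrays. Whether the change in the myelomonocytic genes has a part in the lipid genes was not tested.

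Few of the lipid synthesis genes differed by the rule between U937-AE and U937-Mt cells. Of the 36 measured members, 1 gene (2.78%) was called higher in U937-AE cells and 4 (11.1%) were called lower. Over all 12934 measured genes the same rule called 2.60% higher and 6.12% lower, so the members' share of higher calls was close to this background. Their share of lower calls, 4 genes, was above it here but not without U937-AE replicate 2, where it was 11.1% of members beside 11.2% of all measured genes. The median difference was -0.13 over the measured members, beside -0.10 over all measured genes. Of the 31 members that were not called, 16 differed by less than 1.2-fold. The gene called higher was HMGCS1, and those called lower were AACS, SREBF1, ACSL1 and ACSS2. After the floor, both U937-AE arrays lay above both U937-Mt arrays for 13 members, or 36.1%, and below them for 19, or 52.8%, beside 25.4% and 38.5% of all measured genes. The members' signals had a median at percentile 71.3 of the measured genes, and these shares were not matched for signal. Whether the excess goes with signal was not tested. In bulk RNA a change in the number of cells of a kind and a change in RNA per cell cannot be told apart.

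**Figure D1:**
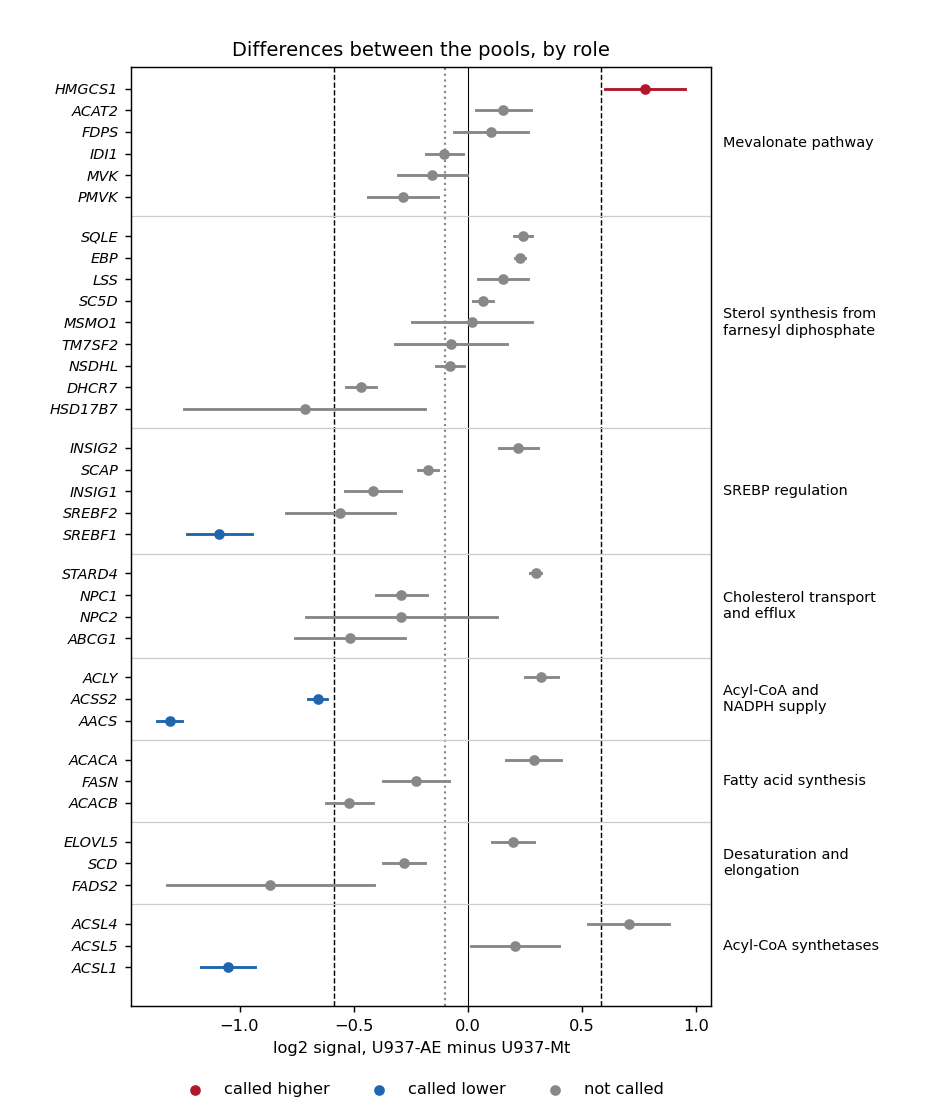
Difference in log2 signal, U937-AE minus U937-Mt, of the 36 measured members (horizontal axis), grouped by role. Points are mean differences, bars span the 4 comparisons between arrays, dashed lines mark 1.5-fold and the dotted line is the median of all measured genes (-0.10). HMGCS1 lies right of the upper dashed line, and SREBF1, ACSS2, AACS and ACSL1 lie left of the lower one with their whole bars.

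AACS, acetoacetyl-CoA synthetase, which activates the ketone body acetoacetate in the cytosol for lipid synthesis, differed the most. Its signals were 443 and 459.7 in the U937-AE copies, against 1094 and 1136 in the U937-Mt copies. Both U937-AE values lay under every U937-Mt value, and the copies of each pool were close together. The difference was -1.31 (-1.36 to -1.25), or 2.47-fold lower in U937-AE cells, and 1.69% of all measured genes had a more negative difference.

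SREBF1 encodes SREBP-1, the transcription factor best known for driving fatty acid synthesis genes. The signals of its brightest probe set were 986 and 872 in the U937-AE copies, against 2047 and 1898 in the U937-Mt copies. The groups did not overlap, and the difference was -1.09 (-1.23 to -0.94), or 2.13-fold lower in U937-AE cells. A dimmer SREBF1 probe set gave 296 and 153 in the U937-AE copies, against 223 and 264 in the U937-Mt copies. Its arrays overlapped and its difference of -0.19 was not called.

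ACSL1, a long-chain acyl-CoA synthetase that couples fatty acids to CoA, had signals of 1182.5 and 1069 in the U937-AE copies, against 2254 and 2402 in the U937-Mt copies. The difference was -1.05 (-1.17 to -0.93), or 2.07-fold lower in U937-AE cells. A second ACSL1 probe set had 556 and 551 in the U937-AE copies, against 1198 and 1099 in the U937-Mt copies. It differed by -1.05 (-1.12 to -0.98) and was also called lower, so both probe sets of this gene gave the same size of change.

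ACSS2, which makes acetyl-CoA from acetate, had signals of 476 and 473 in the U937-AE copies, against 729 and 767 in the U937-Mt copies. The groups were well separated but the change was near the 1.5-fold limit: the difference was -0.66 (-0.70 to -0.62), or 1.58-fold lower in U937-AE cells. HMGCS1 encodes the cytosolic synthase that joins acetoacetyl-CoA and acetyl-CoA at the start of the mevalonate pathway. Its brightest probe set had 1546.5 and 1322 in the U937-AE copies, against 871 and 799.5 in the U937-Mt copies. Both U937-AE arrays were above both U937-Mt arrays, and the difference was 0.78 (0.60 to 0.95), or 1.71-fold higher in U937-AE cells. The other HMGCS1 probe set had 495 and 706 in the U937-AE copies, against 587 and 794 in the U937-Mt copies, with overlapping groups and a difference of -0.21 that was not called. The higher call of HMGCS1 thus came from 1 of its 2 probe sets, and no alternative processing took the other probe set alone.

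The promoters of the 5 called genes are shown because these genes carry the differences described above. Each window runs from 250 bases before to 50 bases after a transcription start in RefSeq on GRCh38.p14, at the most upstream start listed for the gene, 5′ to 3′ on the gene's strand. Capitals mark every match, on either strand, to the sterol regulatory element TCACNCCAC, the CCAAT box CCAAT, the GC box GGGCGG or the core RUNX motif TGTGGT, the motif family bound by AML1.
AACS, chr12:125065185-125065484, plus strand: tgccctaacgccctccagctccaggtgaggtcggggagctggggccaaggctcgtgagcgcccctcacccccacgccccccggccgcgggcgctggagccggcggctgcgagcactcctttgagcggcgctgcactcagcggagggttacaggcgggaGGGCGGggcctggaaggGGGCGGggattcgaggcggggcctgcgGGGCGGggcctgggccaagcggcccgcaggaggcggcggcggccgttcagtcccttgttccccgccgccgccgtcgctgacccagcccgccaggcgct
SREBF1, chr17:17836937-17837236, minus strand: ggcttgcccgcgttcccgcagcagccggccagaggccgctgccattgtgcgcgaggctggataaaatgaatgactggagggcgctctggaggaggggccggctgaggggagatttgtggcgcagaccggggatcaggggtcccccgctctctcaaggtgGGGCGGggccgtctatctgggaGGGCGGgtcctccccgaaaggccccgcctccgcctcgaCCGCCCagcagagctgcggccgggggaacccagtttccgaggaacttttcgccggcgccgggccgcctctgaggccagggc
ACSL1, chr4:184825919-184826218, minus strand: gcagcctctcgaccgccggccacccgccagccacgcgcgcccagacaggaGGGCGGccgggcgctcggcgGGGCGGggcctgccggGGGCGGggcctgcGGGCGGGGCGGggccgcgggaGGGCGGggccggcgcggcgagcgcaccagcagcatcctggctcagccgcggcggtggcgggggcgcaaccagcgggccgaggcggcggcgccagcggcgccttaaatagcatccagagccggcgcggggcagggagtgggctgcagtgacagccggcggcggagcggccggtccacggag
ACSS2, chr20:34874739-34875038, plus strand: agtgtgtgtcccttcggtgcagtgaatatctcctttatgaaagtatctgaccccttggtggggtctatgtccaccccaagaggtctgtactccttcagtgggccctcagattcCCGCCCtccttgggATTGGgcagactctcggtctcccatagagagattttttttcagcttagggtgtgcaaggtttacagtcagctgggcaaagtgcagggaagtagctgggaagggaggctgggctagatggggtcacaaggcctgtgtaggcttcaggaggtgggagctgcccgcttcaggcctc
HMGCS1, chr5:43313363-43313662, minus strand: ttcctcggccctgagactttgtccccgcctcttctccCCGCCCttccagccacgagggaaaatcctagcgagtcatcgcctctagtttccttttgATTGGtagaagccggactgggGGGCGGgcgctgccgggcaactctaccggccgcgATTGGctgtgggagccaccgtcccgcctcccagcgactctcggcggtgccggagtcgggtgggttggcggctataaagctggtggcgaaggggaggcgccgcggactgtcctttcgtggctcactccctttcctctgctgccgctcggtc

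The printed windows of AACS and SREBF1 held 3 GC boxes each and no other match, that of ACSL1 held 6 GC boxes with an overlapping pair, that of ACSS2 held 1 GC box and 1 CCAAT box, and that of HMGCS1 held 2 of each. None of the 5 windows held TGTGGT or TCACNCCAC, while another listed start of ACSL1 did hold TCACNCCAC. Windows were listed for 40 of the 45 members, 58 windows in all. GC boxes were found in 81.0% of members' windows and in 45.0% of all 35116 windows, and CCAAT boxes in 53.4% and 34.6%. TCACNCCAC was found in 3.45% of members' windows, those of ACSL1 and SREBF2, and in 1.13% of all windows. TGTGGT was found in 10.3% of members' windows, those of IDI1, LSS, MVD, NPC2, SCAP and SCD, and in 13.1% of all windows. A match is a description of the letters and not a measured binding site.

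Among the 6 measured enzymes of the mevalonate pathway, HMGCS1 was called and the other 5 were not. The median difference of the 6 was -0.0014. ACAT2, the cytosolic thiolase that makes acetoacetyl-CoA, was the brightest, with signals of 3446 and 3936.5 in the U937-AE copies, against 3359 and 3253 in the U937-Mt copies. The U937-AE arrays were above the U937-Mt arrays, but by only 0.16 (0.04 to 0.28). FDPS, the farnesyl diphosphate synthase at the end of the pathway, had 3789.8 and 3354 in the U937-AE copies, against 3158.5 and 3500.0 in the U937-Mt copies, and its groups overlapped with a difference of 0.10. IDI1, MVK and PMVK, which encode the isomerase and the mevalonate kinases, had differences from -0.28 to -0.10. The other measured probe sets of IDI1 and MVK were also negative, down to -0.78 for IDI1 and -0.59 for MVK, and none was called. Of these 2 lowest, the IDI1 probe set had 1 U937-AE array under the floor and the MVK probe set had both. The signs also depended on the scale. The brightest probe sets of IDI1 and MVK were positive with equal medians (0.17 and 0.12) and equal spike-in signals (0.24 and 0.19).

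None of the 9 measured enzymes of the sterol branch was called on its brightest probe set. The median was 0.02. SQLE, squalene epoxidase, a rate-limiting step of the branch, had signals of 2991 and 3131 in the U937-AE copies, against 2596 and 2577 in the U937-Mt copies, a difference of 0.24 (0.20 to 0.28). Its copies were close and did not overlap between cell lines, yet the change was well inside 1.5-fold. LSS, which closes squalene epoxide into lanosterol, had 2002.5 and 1973.5 in the U937-AE copies, against 1666 and 1914 in the U937-Mt copies, a difference of 0.15, while its other measured probe sets differed by -0.47 and -0.30, and the mean of all its probe sets was -0.21. The lower end of this branch was formed by DHCR7, which catalyzes the last step to cholesterol, at -0.47 (-0.53 to -0.40), and by HSD17B7, a sterol ketoreductase, at -0.71 (-1.24 to -0.19). HSD17B7 was past 1.5-fold on its mean but not in all comparisons: its signals were 439 and 266 in the U937-AE copies, against 499.8 and 630.1 in the U937-Mt copies. The U937-AE copies of HSD17B7 differed by 1.65-fold, after the floor the largest spread between U937-AE copies of any measured member. SC5D, MSMO1, NSDHL and TM7SF2, which encode further sterol-modifying enzymes, lay between -0.08 and 0.07. Both U937-Mt arrays of TM7SF2 were under the floor, and its difference of -0.07 was 0.09 without a floor.

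EBP, the sterol isomerase of this branch, had 4 measured probe sets. The brightest had 1990.5 and 1981 in the U937-AE copies, against 1713 and 1671.5 in the U937-Mt copies, a difference of 0.23 (0.21 to 0.25). Another, much dimmer probe set had 379.5 and 343 in the U937-AE copies, against 82.6 and 53.0 in the U937-Mt copies. There both U937-Mt arrays were below the floor, so the U937-AE signal was at least 2.4-fold higher, and the probe set was called higher. The remaining EBP probe sets differed by 0.11 and 0.20, so this call rested on 1 dim probe set of the 4.

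The 5 regulators of SREBP had the most negative median among the groups with more than 3 measured genes, at -0.42, or 0.32 below that of all measured genes. SREBF1 was called lower. SREBF2, which encodes SREBP-2, the main activator of cholesterol genes, was named here after its values were seen. Its brightest probe set had 1085 and 1045 in the U937-AE copies, against 1816 and 1353 in the U937-Mt copies. The groups did not overlap, but the difference of -0.56 (-0.80 to -0.32) was not called. The other measured SREBF2 probe sets differed by -0.73 and 0.02 and were not called. INSIG1, which retains SCAP in the endoplasmic reticulum and is itself an SREBP target, had 3991 and 3441 in the U937-AE copies, against 4996 and 4886 in the U937-Mt copies, a difference of -0.42 (-0.54 to -0.29). SCAP had 1801 and 1749 in the U937-AE copies, against 2036 and 1972 in the U937-Mt copies, a difference of -0.18 that was positive with equal medians (0.10) and equal spike-in signals (0.17), and INSIG2 differed by 0.22.

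Each SREBP gene also hosts a miRNA of the miR-33 family, known to repress ABCA1. The mature sequences, from RefSeq on GRCh38.p14, are shown because they lie inside the genes SREBF1 and SREBF2. Whether the probe sets of these genes read RNA that holds them was not tested. Capitals mark the seed, bases 2 to 8, which both share. Mature miRNAs were not analysed here.
hsa-miR-33b-5p in SREBF1, chr17:17813897-17813916, minus strand: gUGCAUUGcuguugcauugc
hsa-miR-33a-5p in SREBF2, chr22:41900949-41900969, plus strand: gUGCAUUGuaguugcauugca

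No cholesterol transport gene was called, with a median of -0.29 over 4 measured genes. STARD4, a carrier of cholesterol between membranes, had 2231.5 and 2173 in the U937-AE copies, against 1796 and 1784 in the U937-Mt copies, a difference of 0.30 (0.27 to 0.32). Its copies nearly coincided, and the groups did not overlap. NPC2, a lysosomal cholesterol-binding protein, had 1734 and 1666 in the U937-AE copies, against 2722 and 1589 in the U937-Mt copies, where 1 U937-Mt copy stood apart from the other 3 arrays. Its difference was -0.29 (-0.71 to 0.13). NPC1, the lysosomal membrane partner of NPC2, differed by -0.29. Of the exporters, ABCG1 had 170.1 and 91.0 in the U937-AE copies, against 219 and 206 in the U937-Mt copies and differed by -0.52 (-0.76 to -0.28), with 1 of the U937-AE arrays under the floor, and all 4 ABCA1 probe sets were below the floor on every array.

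Of the 3 measured genes that supply acetyl-CoA or, for AACS, acetoacetyl-CoA, AACS and ACSS2 were called lower. ACLY, ATP citrate lyase, the main source of cytosolic acetyl-CoA from glucose, was one of the brightest members, with 10137 and 9519.6 in the U937-AE copies, against 7996 and 7714 in the U937-Mt copies. Both U937-AE arrays were above both U937-Mt arrays, by 0.32 (0.25 to 0.39), which is not a call. ME1, the malic enzyme that supplies NADPH, was below the floor.

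The genes of fatty acid synthesis itself were not called on their brightest probe sets. FASN, fatty acid synthase, had 4904 and 4392 in the U937-AE copies, against 5689 and 5194 in the U937-Mt copies, a difference of -0.23 (-0.37 to -0.08). ACACA, the cytosolic acetyl-CoA carboxylase, had 1628 and 1819 in the U937-AE copies, against 1449 and 1370.1 in the U937-Mt copies, a difference of 0.29 (0.17 to 0.41). The groups overlapped for neither gene and each difference was inside 1.5-fold, and that of FASN was positive, at 0.04 and 0.12, with equal medians and equal spike-in signals. ACACB, the mitochondrial carboxylase whose product restrains fatty acid oxidation, had 824 and 908 in the U937-AE copies, against 1212 and 1267 in the U937-Mt copies on its brightest probe set, a difference of -0.52 (-0.62 to -0.42). A dim ACACB probe set with 167 and 32.8 in the U937-AE copies, against 299.9 and 261 in the U937-Mt copies was called lower at -0.93. There 1 U937-AE array was under the floor. All 5 measured ACACB probe sets had negative differences, from -0.93 to -0.35. The probe set at -0.35 had both U937-AE arrays and 1 U937-Mt array under the floor, so its size depended on the floor.

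No measured gene of desaturation and elongation was called. ELOVL5, an elongase of polyunsaturated fatty acids and the brightest member, had 11812 and 10586 in the U937-AE copies, against 9834 and 9664 in the U937-Mt copies, a difference of 0.20 (0.11 to 0.29). Its other 3 measured probe sets differed by -0.25, -0.11 and -0.28, and the mean of all its probe sets was -0.11. SCD, the desaturase that makes oleate, had 6537 and 6886 in the U937-AE copies, against 8459 and 7832 in the U937-Mt copies, a difference of -0.28 (-0.37 to -0.19) that was 0.06 with equal spike-in signals. On these brightest probe sets the groups of neither gene overlapped. FADS2, a front-end desaturase of polyunsaturated fatty acids, had 2115 and 2208 in the U937-AE copies, against 2933 and 5279 in the U937-Mt copies. The U937-Mt copies of FADS2 differed by 1.8-fold, after the floor the largest spread between copies of any measured member, and its mean difference of -0.86 (-1.32 to -0.41) was not called.

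The acyl-CoA synthetases had differences of both signs. ACSL1 was called lower. ACSL4, which prefers arachidonic acid, had 3199 and 3182 in the U937-AE copies, against 2205 and 1738 in the U937-Mt copies on its brightest probe set, a difference of 0.70 (0.53 to 0.88) that passed 1.5-fold on the mean and missed it against the brighter U937-Mt copy. Its other measured probe sets, which were dimmer, differed by -0.05 and -0.03. The latter had 155.7 and 139.8 in the U937-AE copies, against 93.2 and 122.3 in the U937-Mt copies. Both of these U937-Mt signals were under the floor, so its sign came from raising them to it. ACSL5 had 1103 and 1412 in the U937-AE copies, against 1069 and 1093 in the U937-Mt copies, a difference of 0.21 (0.01 to 0.40).

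**Figure D2:**
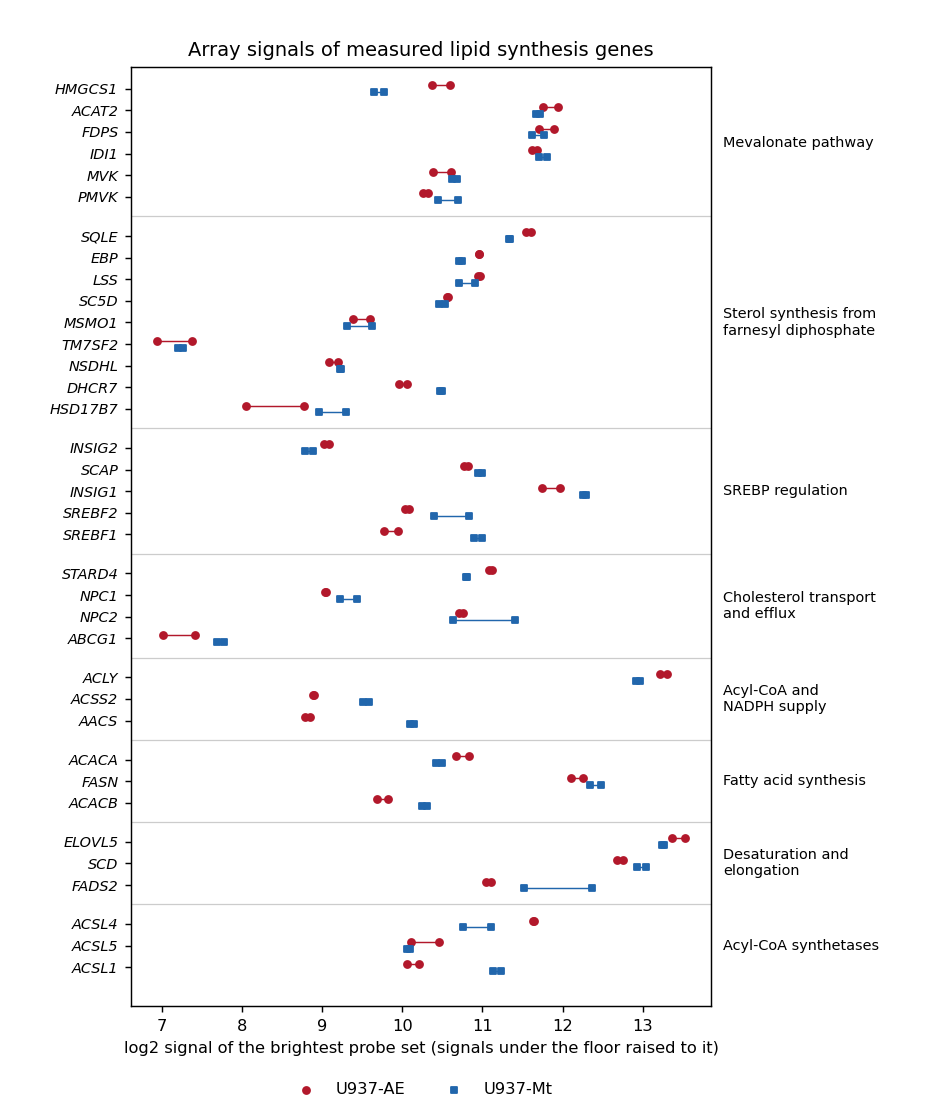
Signal of the brightest probe set of each measured member on each array (horizontal axis, log2 signal with values under the floor raised to it), U937-AE as circles and U937-Mt as squares, with a line joining the 2 copies of a pool. The copies lie close together for AACS and ACSS2, and far apart for FADS2 in U937-Mt (2933 and 5279) and for HSD17B7 in U937-AE (439 and 266).

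The members can be divided into 2 blocks, the enzymes that build sterols and the remaining members. The 15 measured mevalonate and sterol enzymes had 1 gene called higher (6.67%), none called lower, 8 positive and 7 negative differences (46.7% negative), and a median 0.12 above that of all measured genes. The 21 other measured members had none called higher, 4 called lower (19.0%), 7 positive and 14 negative differences (66.7% negative), and a median 0.19 below that of all measured genes. Over all measured genes 2.60% were called higher, 6.12% lower and 59.95% of differences were negative, so the signs of the other members were near this background. These are counts and medians of a chosen list from 1 pool per cell line, and the difference between the blocks was not tested. The signals of the members were mostly high, with a median at percentile 71.3 of the measured genes.

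**Figure D3:**
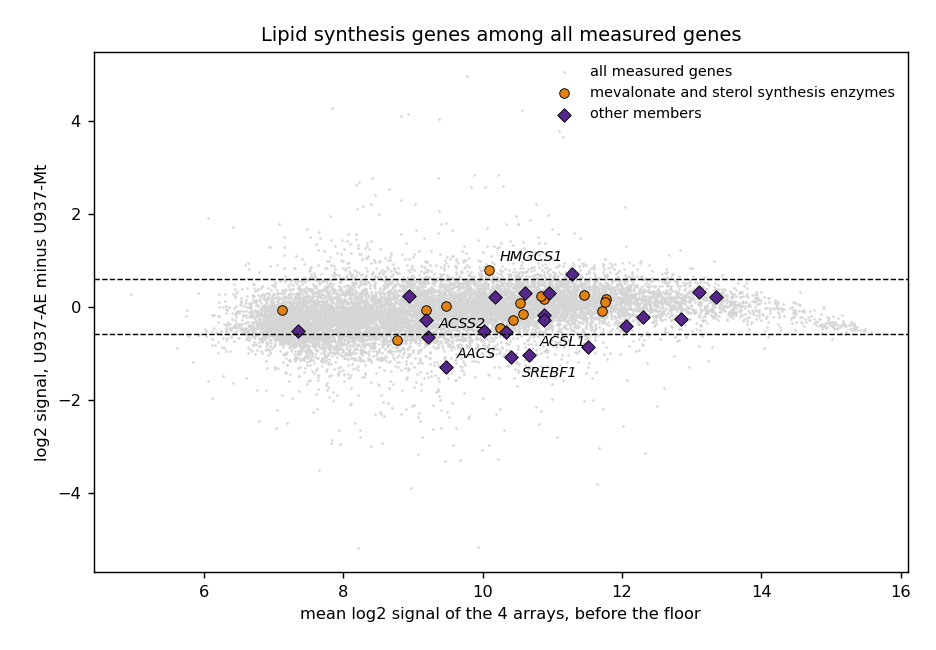
Difference in log2 signal, U937-AE minus U937-Mt (vertical axis), against the mean log2 signal of the 4 arrays (horizontal axis) for all 12934 measured genes in gray, with the 15 mevalonate and sterol synthesis enzymes as circles and the 21 other members as diamonds. Dashed lines mark 1.5-fold, and the 5 called members are named.

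Several probe sets of a gene did not always give the same result. Of the 75 measured probe sets of members, 2 were called higher (2.67%) and 6 lower (8.00%), beside 2.66% and 5.37% of all measured probe sets with a single gene name. Among the 20 members with several measured probe sets, the calls differed for ACACB, EBP, HMGCS1 and SREBF1, and the median distance between the most positive and the most negative probe set was 0.36. ACSL1, SQLE, SC5D and DHCR7 were the tightest, each within 0.04, and EBP the widest at 1.16. Probe sets lie at different places along a transcript, and which isoforms each one reads was not tested. The suffixes _s_at and _x_at mark probe sets whose probes can match several transcripts, and 18 of the 36 brightest probe sets had one of them, those of AACS, ACSS2 and HSD17B7 included.

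**Figure D4:**
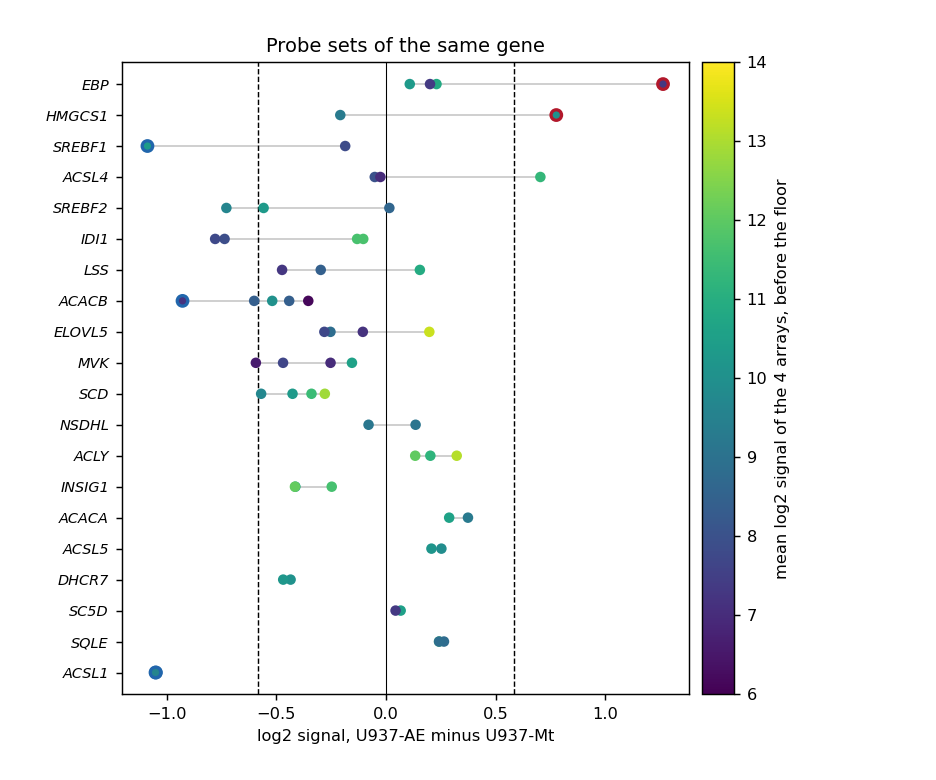
Difference in log2 signal, U937-AE minus U937-Mt (horizontal axis), of every measured probe set of the 20 members with several, 1 row per gene, colored by mean log2 signal, with red rims for probe sets called higher and blue rims for those called lower. The probe sets of EBP, HMGCS1 and SREBF1 spread the most, and those of ACSL1 coincide at -1.05.

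Genes of neighboring pathways that are not members did not pass the rule in either direction, beside 2.60% higher and 6.12% lower over all measured genes. Of 61 such genes listed, 53 were analysed and 46 were measured, 18 with positive and 28 with negative differences and a median of -0.12. They comprised 5 other sterol and isoprenoid genes (median 0.06), 6 of SREBP processing and sterol sensing (0.21), 9 of cholesterol storage and transport (-0.19), 18 of fatty acid and glycerolipid synthesis (-0.18) and 8 of fatty acid oxidation (-0.09), each count being the measured genes.

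The scale of the arrays bears on the number of calls. The deposited signals had been set to the same trimmed mean on every array, whereas the floor was lower by 0.27 in U937-AE and the spike-in controls were 1.27-fold brighter in U937-Mt. Setting all arrays to the same median moved the median of all measured genes to 0.17 and the split of calls to 911 higher and 387 lower, and setting them to the same spike-in signal moved it to 0.24 with 1369 higher and 290 lower, against 336 and 791 as deposited. HMGCS1 stayed positive and called, and AACS stayed negative and called, under quantile, median and spike-in scaling. SREBF1, ACSL1 and ACSS2 stayed negative under all 3, but SREBF1 was not called with equal medians (-0.82), ACSL1 was not called with equal spike-ins (-0.71), and ACSS2 was called under none of them (-0.59, -0.39 and -0.31). ACSL4 was called higher with equal medians and with equal spike-ins (0.97 and 1.05), and ACLY with equal spike-ins (0.67). A shift adds the same amount to every gene and so leaves each block's distance from the median of all genes unchanged by construction. Under quantile scaling the sterol enzymes lay 0.07 above and the other members 0.30 below that median, while the mevalonate pathway alone lay 0.07 below it, against 0.10 above it as deposited. The median of the transport genes was 0.05 with equal spike-ins.

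**Figure D5:**
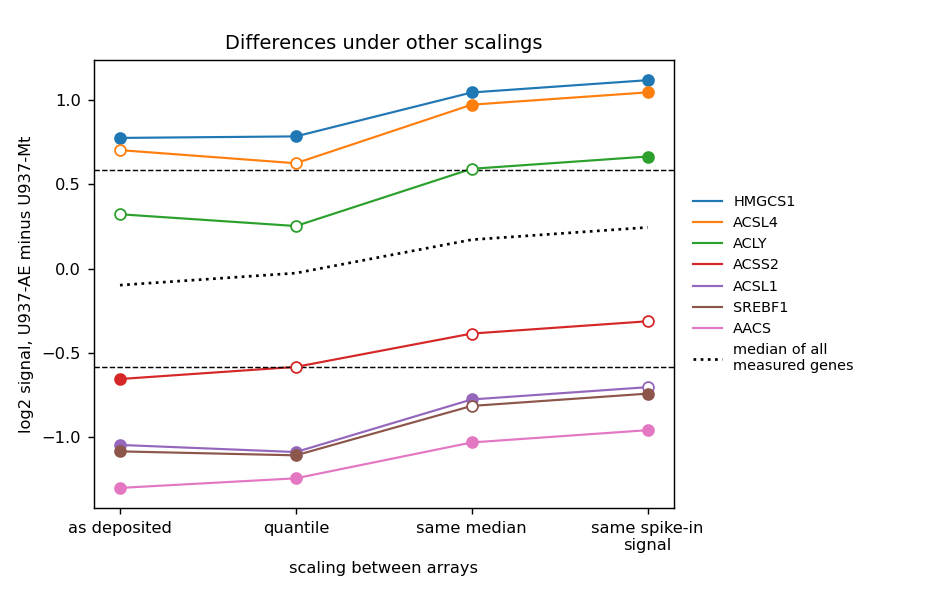
Difference in log2 signal, U937-AE minus U937-Mt (vertical axis), of 7 members under 4 scalings between arrays (horizontal axis), with filled points where the gene was called and open points where it was not. Dashed lines mark 1.5-fold and the dotted line is the median of all measured genes, which runs from -0.10 as deposited to 0.24 with equal spike-in signal.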

How the data were processed

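The RNA pools were hybridized to 4 Affymetrix HG-U133 Plus 2.0 arrays, 2 copies per pool and 1 pool per cell line. The intensity values deposited by the authors are linear signals per probe set, made with GCOS at default settings (version not given in the sources used here), with no detection calls in the table used. Their 2% trimmed mean was 500.1 on every array.

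Signals below the array's 50th percentile (119.5 and 129.7 in U937-AE, 146.8 and 153.6 in U937-Mt) were raised to it, and log2 was taken. Probe sets below the floor on all arrays therefore differ by -0.27 by construction. Of 54675 probe sets, 41097 had 1 gene symbol, 1801 had several and 11777 were not named. Symbols were updated through RefSeq on GRCh38.p14. The members, the gene lists and the alternatives were chosen with earlier results of these data known. Values were given array by array for every member called on any probe set and for the 2 brightest uncalled members of each role, and of the neighboring lists only called genes would have been named. HSD17B7, FADS2 and SREBF2 were added after their values were seen, and the array values of ABCG1 were also given outside this rule. The number of arrays limits the precision. Alternatives covered scaling, floor, call rule, the probe set taken for a gene and the omission of single arrays. Changes of the floor left the differences of HMGCS1, SREBF1, ACSL1 and ACSS2 as they were. They moved that of AACS only at percentile 75, to -1.27. The rules that took 1 probe set per gene chose the main one again for HMGCS1 and SREBF1. AACS and ACSS2 have 1 probe set each, so that choice could not move them. limma 3.58.1 and the methods' t-test were run as alternatives, and their p-values cover only the spread between array copies. Python 3.11.15, numpy 2.4.6, pandas 2.3.3, scipy 1.17.1 and R 4.3.3 were used.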

Additional observations from a re-analysis of the deposited data

How the results depend on the processing

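HMGCS1, SREBF1 and ACSL1 kept their direction in 14 alternatives and AACS and ACSS2 in 13, some of which repeat the main value. Another 6 of the 20 change only the call. Several moved the counts, which are small. As deposited, 1 member was called higher and 4 lower, with a median of -0.13. Arrays shifted to the same median gave 2 higher and 2 lower, 5.56% each, beside 7.04% and 2.99% of all measured genes. The members' median was then 0.14. Arrays shifted to the same spike-in signal gave 3 higher (8.33%) and 2 lower (5.56%), beside 10.6% and 2.24%, and a median of 0.21. The median of all genes also turned positive under both shifts. Quantile normalization gave 1 higher (2.78%) and 3 lower (8.33%), beside 2.88% and 4.72% of all measured genes, and a median of -0.19. A 2-fold limit left 0 higher and 1 lower (2.78%), AACS, beside 0.758% and 2.03% of all measured genes. The rule on the mean of the 2 arrays gave 2 higher (5.56%) and 6 lower (16.7%), beside 4.82% and 13.6% of all measured genes. Taking the mean of all probe sets of a gene gave 0 higher, 3 lower without SREBF1, and a median of -0.23. The 3 lower were 8.33% of members, beside 4.48% of all measured genes lower and 1.44% higher. Leaving out probe sets ending in _x_at and _s_at left 25 members, with 1 higher, 2 lower and a median of -0.051. The only AACS and ACSS2 probe sets were among those left out. The 2 lower were 8.00% of these members, beside 5.54% of all measured genes lower and 2.42% higher. The probe set with the largest difference gave 2 higher (5.56%) and 5 lower (13.9%), beside 3.77% and 7.86% of all measured genes. The members' median was then -0.28. limma calls required an adjusted p under 0.05 and a difference past 1.5-fold. On the 4 arrays limma gave 1 higher (2.78%) and 4 lower (11.1%), beside 3.07% and 6.37% of all measured genes. With the array number as a replicate block, it gave 0 higher and 1 lower (2.78%), AACS, beside 0.595% and 1.59%. At an unadjusted p under 0.05, also past 1.5-fold, the block gave 2 higher and 5 lower. The share of all genes at the unadjusted p was not counted, so this count of members has no background to be read against. The array numbers pair nothing, since they number copies of 1 pool, so the fewer calls with the block are no sign of a weaker effect. The methods' t-test (2-fold and an unadjusted p under 0.05) gave 0 higher and 3 lower (8.33%), and after Benjamini-Hochberg adjustment 0 higher and 0 lower. Over all measured genes it gave 131 higher and 385 lower, and after adjustment 0 and 3, against 336 and 791 by the rule used. Leaving out 1 array at a time gave 1 to 2 higher, 4 to 6 lower and a median of -0.16 to -0.08. All 5 called members stayed called each time, but the calls among all measured genes also grew, to 3.49% to 4.31% higher and 8.79% to 11.6% lower, so the background of 6.12% lower rests on both copies. Without U937-AE replicate 2, 11.1% of members and 11.2% of all measured genes were lower. Without U937-Mt replicate 1 these were 13.9% and 11.6%, and without U937-AE replicate 1 and U937-Mt replicate 2 they were 16.7% of members each time, beside 8.79% and 10.2% of genes. HSD17B7 and ABCG1 were added as lower without U937-AE replicate 1, FADS2 as lower and ACSL4 as higher without U937-Mt replicate 1, and SREBF2 and NPC2 as lower without U937-Mt replicate 2. Without a floor, or with one at the 25th percentile, ABCA1 was also called lower, from signals under the floor on all arrays.

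AACS kept its call in 18 of 19 alternatives, ACSL1 in 16 of 20, HMGCS1 and SREBF1 in 15 of 20 and ACSS2 in 12 of 19. The limits are 1 pool per cell line, a clone set against a bulk population, and a choice of scale between arrays that moves the median of all genes between -0.10 and 0.24.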
